A study of Homo sapiens with 11 samples.

Results

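The subject is a set of 10 noncoding RNA genes, each of which carries small nucleolar RNAs (snoRNAs) in its introns, in HEK293T cells, a human embryonic kidney line. The genes were taken by name, as host genes whose spliced RNAs are known substrates of nonsense-mediated decay. All 10 were among the 27671 genes of the count table, and all 10 passed the filter on low counts that left 15591 genes for testing. The cells had received the compound A8 at 10 µM (3 libraries, called A8 1, A8 2 and A8 3), A8 at the same dose together with ISRIB (3 libraries, A8+ISRIB 1 to 3), the vehicle DMSO with ISRIB (2 libraries, DMSO+ISRIB a and b) or DMSO alone (3 libraries, DMSO 1 to 3). By the series title, A8 is aimed at the RNA sensor RIG-I and switches on the integrated stress response. ISRIB stabilises the translation factor eIF2B and so counters that response. The labels give no concentration of ISRIB, and they give the treatment time as 8 h in the titles and 4 h in the protocol.

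A snoRNA host gene is transcribed and spliced, and its introns are trimmed to snoRNAs that guide chemical modification of ribosomal and other RNAs. The spliced exons of these 10 genes leave the nucleus and are loaded by ribosomes. A ribosome soon meets a stop codon with exon junctions downstream, and that arrangement directs an RNA into nonsense-mediated decay, which needs translation. Blocking translation with drugs such as cycloheximide is known to raise GAS5 and other members, and many members start with a pyrimidine tract like that of ribosomal protein mRNAs (the TOP motif). The integrated stress response lowers translation initiation, and the question put to the data was whether the level of these RNAs differed with A8, with ISRIB, or with both.

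The start sites are shown because a TOP-like tract is a shared feature of translation genes. RefSeq (GRCh38.p14) gave windows for 8 of the 10 members that are printed here, and SNHG6 and SNHG15 are named only. Each window runs from 10 bases before the annotated start to 30 bases after it, on the strand of the gene, and capitals mark a run that opens with C, holds only C and T, is at least 5 bases long and begins within 10 bases of the start.
GAS5, chr1:173869016-173869055, minus strand: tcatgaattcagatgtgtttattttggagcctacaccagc
SNHG1, chr11:62855856-62855895, minus strand: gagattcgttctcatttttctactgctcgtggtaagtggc
SNHG5, chr6:85678704-85678743, minus strand: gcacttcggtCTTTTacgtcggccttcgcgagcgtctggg
SNHG16, chr17:76557754-76557793, plus strand: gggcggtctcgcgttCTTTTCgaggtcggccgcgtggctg
ZFAS1, chr20:49278632-49278671, plus strand: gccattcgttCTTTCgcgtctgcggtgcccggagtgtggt
SNHG7, chr9:136728155-136728194, minus strand: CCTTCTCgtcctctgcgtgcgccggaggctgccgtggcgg
SNHG8, chr4:118278752-118278791, plus strand: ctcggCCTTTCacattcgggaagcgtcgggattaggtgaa
SNHG12, chr1:28581844-28581883, minus strand: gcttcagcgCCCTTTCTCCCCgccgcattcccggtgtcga

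Such a run was found in 6 of the 8 windows, against 33.5% of 35116 annotated start windows in all. It begins exactly at the annotated start in SNHG5 and ZFAS1 and 1 base before it in SNHG12, whose run of 12 bases is the longest. The run begins 5 bases after the start in SNHG16 and 5 bases before it in SNHG8. In SNHG7 it begins 10 bases before the start and, at 7 bases, ends ahead of it. GAS5 and SNHG1 hold no run by this rule at the start that RefSeq annotates. The composite element read by ATF4 and C/EBP factors, searched on both strands as TGATGNAAN from 250 bases before the start to 50 after it, was found in 0 of the 8 windows, against 3.61% of all windows. A match or its absence describes the letters in these windows and says nothing of binding.

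First open reading frames of 3 members are shown because a stop codon with exon junctions downstream is the arrangement described above. Decay of these RNAs was not measured. They were read from the first ATG of 1 reference transcript per gene in GENCODE v29 (GRCh38), and capitals mark the ATG and the stop.
SNHG1: ATGccttctgtgttgTAG
SNHG15: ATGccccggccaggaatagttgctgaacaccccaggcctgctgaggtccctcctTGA
SNHG16: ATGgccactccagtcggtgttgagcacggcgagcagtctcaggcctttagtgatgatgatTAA

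The frame of SNHG1 is 5 codons long in a transcript of 1487 nucleotides, and all 9 exon junctions lie downstream of its stop. SNHG16 has a frame of 20 codons with 3 of 4 junctions downstream, and SNHG15 a frame of 18 codons with 1 of 4 downstream. The first ATG lies at nucleotide 105 in SNHG1 and 9 in SNHG16, but at nucleotide 380 of 982 in SNHG15, whose stop is thus not near the start. ZFAS1 has the longest first frame of the members, 117 codons, with 3 of 4 junctions downstream. SNHG7 is the exception, since its reference transcript has 1 junction and none downstream of the stop of its 64-codon frame, although 3 of its 4 annotated spliced transcripts do have one. Over all annotated spliced transcripts of the members, 78 of 88 (88.6%) had a junction at least 50 nucleotides downstream of the first stop, against 71.3% of the 25114 spliced transcripts of other long noncoding RNA genes.

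The libraries held 34072107 to 35318111 counts each and detected 17892 to 18017 genes. The 10 members together took 0.0464% to 0.0562% of the counts, and single members had from 380 to 4400 counts in a library. The library A8+ISRIB 3 had the most extreme place on the first principal component (-28.8, next to -20.2 for DMSO 1 and -2.57 to 16.6 for the rest). It also had the lowest scaling factor (0.938). Fold changes of SNHG1 and SNHG16 that use this library are given with and without it. Of the markers of other cell types examined, PTPRC, CD3E, INS and PECAM1 were at 0 counts in every library, ALB, GFAP, MYH7 and EPCAM stayed under 1 CPM, and COL1A1 had 15.7 to 21.2 CPM. The epithelial and mesenchymal genes known in HEK293 cells, VIM (630.3 to 755 CPM) and KRT18 (43.2 to 59.4 CPM), were present, as was LIN28B (8.86 to 15.6 CPM). The submitters' text calls the replicates biological and does not say that they were separate cultures, so p-values measure the spread between these libraries.

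No member differed with A8 past the threshold. In the comparison of A8 with DMSO, 0 of 10 members passed an adjusted p of 0.05 in edgeR's quasi-likelihood test with Benjamini-Hochberg adjustment over all genes tested, where 0.141% of all genes passed. The Wald test of DESeq2 called 0 of 10 as well, and its share of all genes was not counted. At an unadjusted p under 0.05 in edgeR there were 2 members, GAS5 and SNHG7, against 10.2% of all genes. The log2 fold changes ran from -0.28 (SNHG12) to 0.21 (GAS5), 6 above 0 and 4 below, with a median of 0.07 beside 0.01 for all genes tested. In this edgeR fit all 10 members had a 95% interval of the difference that lay within 1.5-fold either way, as did 72.9% of all genes. With the standard errors of the authors' deposited table the intervals of 8 of the 10 lay within 1.5-fold, SNHG12 and SNHG16 being the exceptions. In bulk RNA, fewer cells with a transcript and less of it per cell cannot be told apart. Levels below are CPM, counts scaled to a common library size with TMM factors, a scale that does not correct for length, so levels of different genes are not compared.

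**Figure D1:**
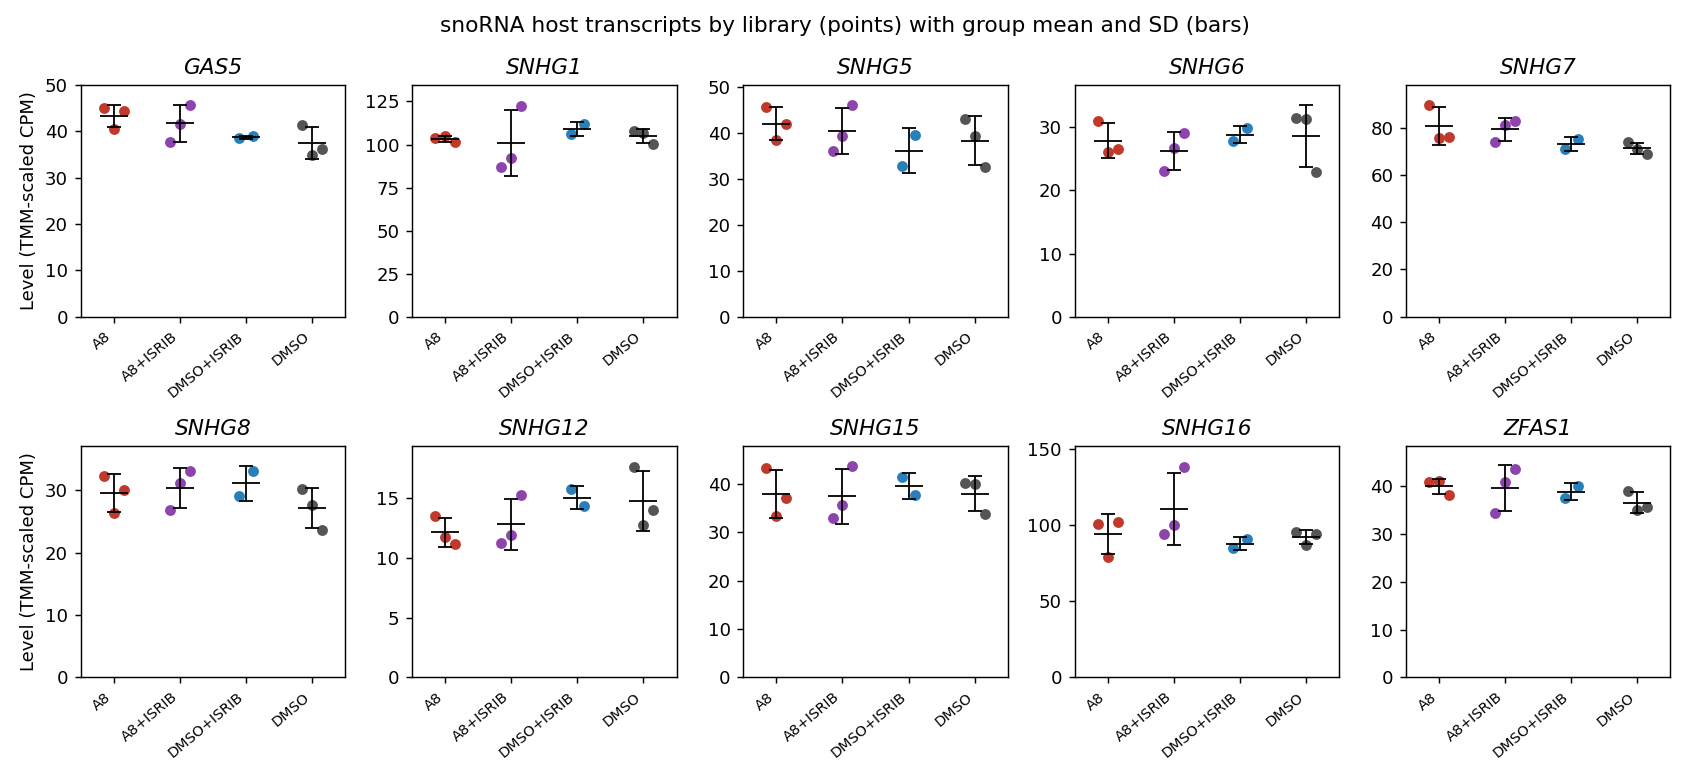
Level (TMM-scaled CPM, vertical axis from 0) of each of the 10 snoRNA host transcripts in the A8, A8+ISRIB, DMSO+ISRIB and DMSO groups, with 1 point per library, a horizontal line at the group mean and a bar of 1 SD. Among the A8 and DMSO points only those of SNHG7 do not overlap, and the highest point in the SNHG1 and SNHG16 panels (123 and 138 CPM) is A8+ISRIB 3.

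Among hosts of box C/D snoRNAs, which guide ribose methylation, GAS5 is the best-studied substrate of translation-dependent decay and a decoy for the glucocorticoid receptor. GAS5 had 45.0, 40.6 and 44.3 CPM in A8 libraries, 37.8, 41.6 and 45.7 CPM in A8+ISRIB libraries, 38.5 and 38.9 CPM in DMSO+ISRIB libraries and 41.4, 34.9 and 36.2 CPM in DMSO libraries. The A8 libraries lay at the upper end, but the DMSO library 1 lay above the A8 library 2, so the groups overlapped. The log2 fold change of A8 against DMSO was 0.21 (SE 0.08, 95% interval 0.03 to 0.39), and in edgeR the unadjusted p was 0.0250 and the adjusted p 0.415. With single libraries left out this fold change ran from 0.16 to 0.29. Group means of GAS5 were 43.3 ± 2.36 CPM in A8, 41.7 ± 3.98 in A8+ISRIB, 38.7 ± 0.303 in DMSO+ISRIB and 37.5 ± 3.42 in DMSO (SD, n = 3, 3, 2 and 3). No pair of groups tested differed past the threshold in GAS5 or in any other member. No order of group means is therefore read.

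SNHG1, the host of a cluster of box C/D snoRNAs and the member with the shortest first frame, had 104, 105 and 101 CPM in A8 libraries, 87.2, 92.4 and 123 CPM in A8+ISRIB libraries, 106 and 112 CPM in DMSO+ISRIB libraries and 108, 107 and 100.2 CPM in DMSO libraries. Both the lowest and the highest value of SNHG1 lay within the A8+ISRIB group. A8 against DMSO gave a log2 fold change of -0.02 (SE 0.09, 95% interval -0.22 to 0.18).

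SNHG5, host of the SNORD50 pair, had 45.8, 38.5 and 41.9 CPM in A8 libraries, 36.2, 39.3 and 46.0 CPM in A8+ISRIB libraries, 32.7 and 39.6 CPM in DMSO+ISRIB libraries and 43.2, 39.4 and 32.5 CPM in DMSO libraries. Its log2 fold change of A8 against DMSO was 0.13 (SE 0.11, 95% interval -0.10 to 0.37), and the groups overlapped. SNHG6, host of SNORD87, had 31.0, 26.0 and 26.6 CPM in A8 libraries, 23.1, 26.7 and 29.1 CPM in A8+ISRIB libraries, 27.9 and 29.8 CPM in DMSO+ISRIB libraries and 31.4, 31.4 and 22.9 CPM in DMSO libraries. The lowest and the highest value of SNHG6 were both DMSO libraries, and its log2 fold change of A8 against DMSO was -0.03 (SE 0.12).

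SNHG16, host of the SNORD1 family, had 101, 78.8 and 102 CPM in A8 libraries, 94.0, 99.9 and 138 CPM in A8+ISRIB libraries, 84.6 and 90.8 CPM in DMSO+ISRIB libraries and 95.3, 86.9 and 93.9 CPM in DMSO libraries. A8+ISRIB 3 stood well above every other library, and the A8 libraries spanned the DMSO range on both sides. The log2 fold change of A8 against DMSO was 0.03 (SE 0.12). ZFAS1, host of the SNORD12 family, had 40.8, 41.0 and 38.1 CPM in A8 libraries, 34.4, 40.9 and 43.6 CPM in A8+ISRIB libraries, 37.6 and 40.1 CPM in DMSO+ISRIB libraries and 39.1, 35.0 and 35.7 CPM in DMSO libraries. Of the DMSO libraries only DMSO 1 reached into the A8 range of ZFAS1, and the log2 fold change was 0.13 (SE 0.09, unadjusted p 0.152 in edgeR).

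Among hosts of box H/ACA snoRNAs, which guide pseudouridylation, SNHG7 carries the SNORA17 pair. SNHG7 had 89.7, 75.5 and 76.2 CPM in A8 libraries, 73.8, 81.0 and 82.8 CPM in A8+ISRIB libraries, 71.0 and 75.1 CPM in DMSO+ISRIB libraries and 73.7, 70.8 and 69.0 CPM in DMSO libraries. It was the 1 member whose A8 and DMSO libraries did not overlap, as 16.6% of all genes did not. The log2 fold change was 0.18 (SE 0.07, 95% interval 0.02 to 0.33), and edgeR gave it an unadjusted p of 0.0292 and an adjusted p of 0.426. It was 0.09 (unadjusted p 0.226) without A8 1.

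SNHG8, host of SNORA24, had 32.4, 26.3 and 30.02 CPM in A8 libraries, 26.8, 31.1 and 33.1 CPM in A8+ISRIB libraries, 29.2 and 33.1 CPM in DMSO+ISRIB libraries and 30.2, 27.7 and 23.7 CPM in DMSO libraries. SNHG15, host of SNORA9, had 43.1, 33.4 and 37.1 CPM in A8 libraries, 32.9, 35.5 and 43.7 CPM in A8+ISRIB libraries, 41.4 and 37.6 CPM in DMSO+ISRIB libraries and 40.1, 39.9 and 33.7 CPM in DMSO libraries. In both genes every group overlapped every other. The log2 fold change of A8 against DMSO was 0.12 (SE 0.11) for SNHG8, while for SNHG15 both groups averaged 37.9 CPM.

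SNHG12 hosts both kinds, SNORD99 and several H/ACA snoRNAs, and it was the member with the lowest fold change. SNHG12 had 13.5, 11.7 and 11.2 CPM in A8 libraries, 11.3, 11.9 and 15.2 CPM in A8+ISRIB libraries, 15.7 and 14.3 CPM in DMSO+ISRIB libraries and 17.6, 12.7 and 14.0 CPM in DMSO libraries. A8 1 lay above DMSO 2, so the groups overlapped. The log2 fold change of A8 against DMSO was -0.28 (SE 0.13, 95% interval -0.57 to 0.00), and edgeR gave it an unadjusted p of 0.0512 and an adjusted p of 0.491. It was -0.14 (unadjusted p 0.322) without DMSO 1.

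ISRIB was tested on its own against DMSO, and then on top of A8. In the comparison of DMSO+ISRIB with DMSO, 0 of 10 members passed the threshold in edgeR, as did 0% of all genes, and 0 members had an unadjusted p under 0.05, against 9.58% of all genes. The log2 fold changes ran from -0.08 (SNHG5) to 0.20 (SNHG8, SE 0.12), with a median of 0.04, and SNHG8 had 0.11 without DMSO 3 and 0.10 without DMSO+ISRIB b. In the comparison of A8+ISRIB with A8, 0 of 10 members passed in edgeR, where 0.18% of all genes did, and 0 had an unadjusted p under 0.05, against 5.91% of all genes. The log2 fold changes ran from -0.09 (SNHG6) to 0.24 (SNHG16, SE 0.12), with a median of -0.02, and SNHG16 had 0.046 without A8+ISRIB 3. All 10 intervals of the edgeR fit lay within 1.5-fold in both comparisons, beside 69.9% of all genes with ISRIB alone and 73.9% with ISRIB on top of A8. With the standard errors of the authors' deposited table for ISRIB alone, 9 of 10 did so, SNHG16 being the exception. The libraries overlapped in all 10 members in both comparisons, while they did not overlap in 29% and 11.1% of all genes. For GAS5, the member with the highest fold change in A8 against DMSO, A8+ISRIB against A8 gave -0.05 (SE 0.08, 95% interval -0.23 to 0.12). DESeq2 called 0 of 10 in each of these comparisons, with its share of all genes again not counted.

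The effect of A8 in the presence of ISRIB was asked by setting A8+ISRIB against DMSO+ISRIB. Again 0 of 10 members passed in edgeR, where 0.0128% of all genes did, and 1 had an unadjusted p under 0.05, against 8.32% of all genes. That member was SNHG16, with a log2 fold change of 0.33 (SE 0.13, 95% interval 0.05 to 0.62), and edgeR put its unadjusted p at 0.0235 and its adjusted p at 0.550. Its A8+ISRIB and DMSO+ISRIB libraries did not overlap, which held for 25.2% of all genes. Without A8+ISRIB 3 the value was 0.14 (unadjusted p 0.171). Other members moved away from 0 in some fits with single libraries left out. In this comparison SNHG1 was -0.12 and then ran from -0.28 to -0.02, and SNHG12 was -0.23 and ran from -0.38 to -0.15. The members' median was -0.0046 beside 0.0019 for all genes, and 9 of 10 intervals lay within 1.5-fold, against 70% of all genes, SNHG16 being the exception.

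Setting A8+ISRIB against DMSO, which shares its DMSO libraries with the comparison of A8, gave 0 of 10 members past the threshold in edgeR, where 0.0192% of all genes passed, and 1 at an unadjusted p under 0.05, against 7.7% of all genes. SNHG16 was again that member (log2 fold change 0.26, SE 0.12, and in edgeR an unadjusted p of 0.0404 and an adjusted p of 0.619), and its value was 0.08 without A8+ISRIB 3. SNHG7 was 0.15 (SE 0.07) with no overlap of the libraries, as for 12.4% of all genes. All 10 intervals lay within 1.5-fold, against 73.3% of all genes. The interaction, which asks whether A8 acts differently with ISRIB, gave 0 of 10 members in edgeR, where 0.0257% of all genes passed, and 0 at an unadjusted p under 0.05, against 8.48% of all genes. Its estimates ran from -0.16 (SNHG8) to 0.31 (SNHG16, SE 0.18, and 0.11 without A8+ISRIB 3), and 9 of 10 intervals lay within 1.5-fold, against 56.9% of all genes.

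**Figure D2:**
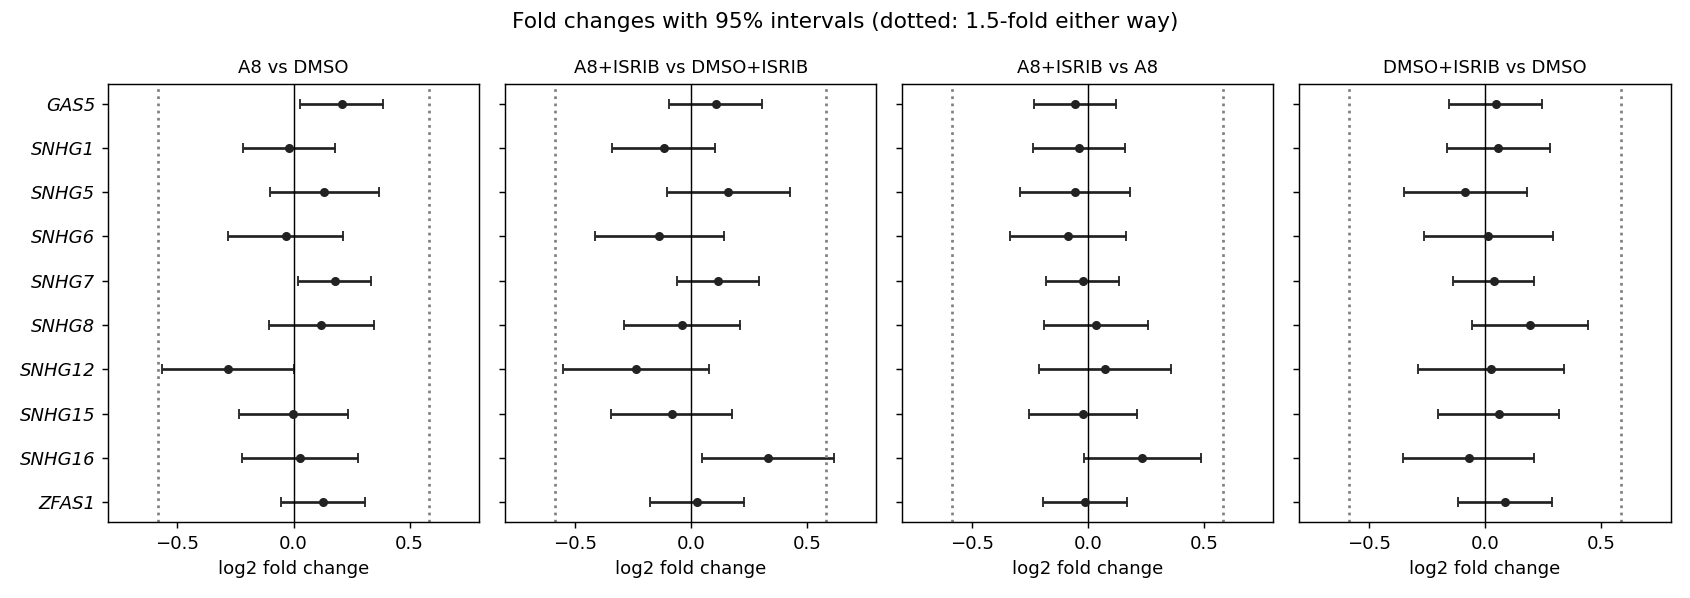
Log2 fold changes (horizontal axis) of the 10 snoRNA host transcripts with 95% intervals in 4 comparisons, with dotted lines at 1.5-fold either way. The intervals of GAS5 and SNHG7 in A8 against DMSO and of SNHG16 in A8+ISRIB against DMSO+ISRIB leave 0, none passes the adjusted threshold, and the SNHG16 interval is the one that crosses a dotted line.

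The members moved together from library to library within a group. As deviations from the mean of its own group on the log2 scale, all 10 members lay above it in A8 1 (median 0.13), in A8+ISRIB 3 (median 0.17) and in DMSO 1 (median 0.12). All 10 lay below it in A8+ISRIB 1 (median -0.17), 9 of 10 in DMSO 3 (median -0.06) and 8 of 10 in A8 2 (median -0.09). Shifts of either sign thus occurred within A8, A8+ISRIB and DMSO libraries alike, and the medians of the A8+ISRIB libraries 1 and 3 lie further apart than any member's fold change of A8 against DMSO. Protein-coding snoRNA hosts showed a shift of the same sign in those libraries, with 26 of 28 above in A8+ISRIB 3 (median 0.12) and 25 of 28 below in A8+ISRIB 1 (median -0.10).

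**Figure D3:**
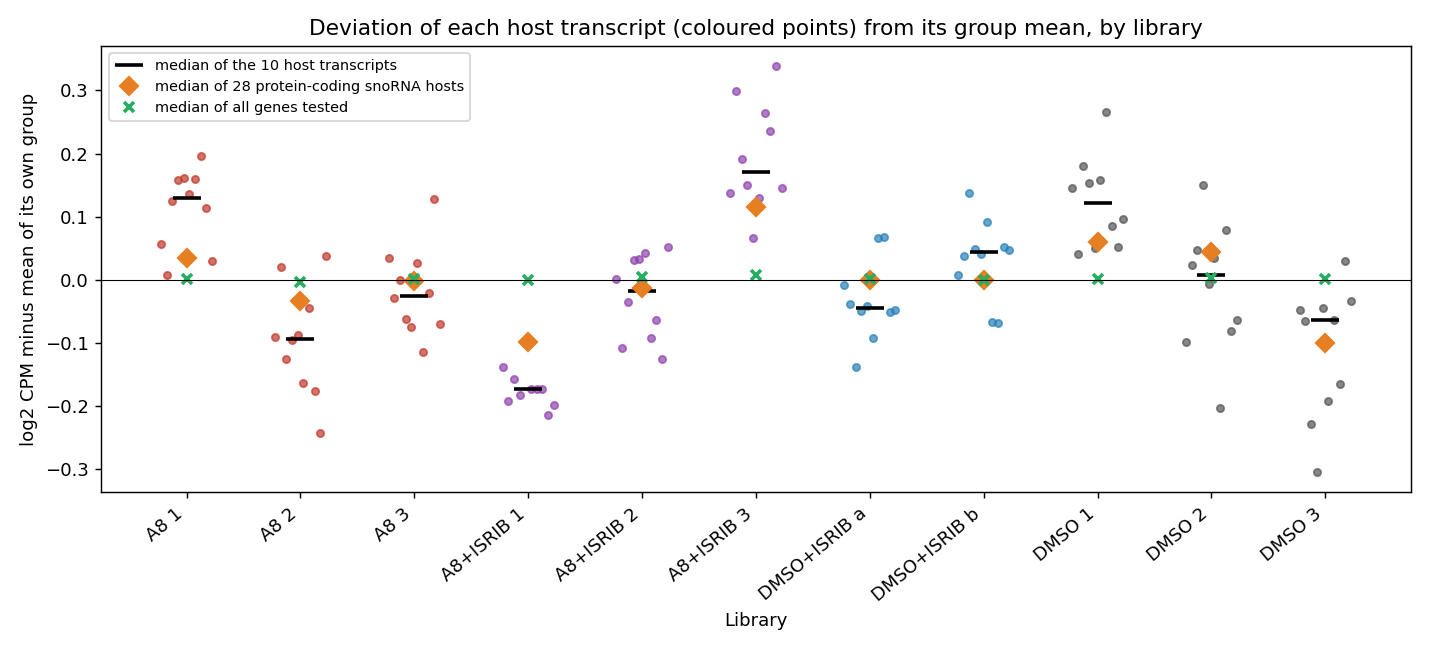
Deviation of each snoRNA host transcript from the mean of its own group (log2 CPM, vertical axis) in each of the 11 libraries, with bars at the median of the 10 transcripts, diamonds at the median of 28 protein-coding snoRNA hosts and crosses at the median of all genes tested. The 10 points lie wholly above 0 in A8 1, A8+ISRIB 3 and DMSO 1 and wholly below 0 in A8+ISRIB 1, while the crosses stay near 0.

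Genes with long transcripts and genes of low GC content deviated with the opposite sign in these libraries. The quintile of genes with the longest transcripts (2738 genes) had median deviations of -0.04 in A8 1, -0.08 in A8+ISRIB 3 and -0.06 in DMSO 1, and of 0.07 in A8+ISRIB 1, 0.06 in DMSO 3 and 0.05 in A8 2. The quintile with the lowest GC content had -0.05 in A8 1, -0.06 in A8+ISRIB 3 and -0.07 in DMSO 1, and 0.04 in A8+ISRIB 1 and 0.06 in DMSO 3. The quintile with the shortest transcripts, which holds 5 members, stayed close to 0, at 0.0078 in A8 1, 0.020 in A8+ISRIB 3 and 0.0064 in DMSO 1, and at -0.011 in A8+ISRIB 1 and -0.014 in DMSO 3. Of the members 9 lie in the 2 shortest quintiles, and 2 lie in the quintile of lowest GC. Between groups, A8 against DMSO gave a median log2 fold change of 0.05 in the quintile of lowest GC and of -0.09 in that of highest GC, while the members' GC content ran from 42.1% to 59.9%. The part of length and composition in the members' shifts was not tested.

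The genes most like the members across the 11 libraries were found by the root mean square difference between the members' mean standardised level and each gene's. The closest were RPS27A (0.289), which encodes a ubiquitin fusion with a ribosomal protein, RPL5 (0.291) and RPL34 (0.295), both proteins of the large ribosomal subunit, PFDN5 (0.300), a prefoldin subunit, and TOP1MT (0.307), the mitochondrial topoisomerase. RPS27A had 198, 168 and 175 CPM in A8 libraries, 159.9, 182 and 216 CPM in A8+ISRIB libraries, 180.02 and 199 CPM in DMSO+ISRIB libraries and 195, 167 and 161 CPM in DMSO libraries. As in the members' mean standardised level, for likeness to which RPS27A was picked, A8 1, A8+ISRIB 3 and DMSO 1 were the highest of their groups. The members themselves, each of which helped to set the profile, lay between 0.498 (SNHG8) and 0.979 (SNHG12) from it.

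Related genes gave the setting for these values. Of 14 other snoRNA host noncoding RNAs listed, 10 were in the table and 8 were tested, and 0 passed the threshold in edgeR in any comparison. In A8 against DMSO, 1 of these 8 had an unadjusted p under 0.05 in edgeR, against 10.2% of all genes. The median was -0.09, with 1 above 0 and 7 below. Of 28 protein-coding snoRNA hosts, 0 rose and 1 fell with A8 past the threshold, where 0.141% of all genes passed in either direction. Their median was 0.05. The one that fell was HSPA8, the constitutive cytosolic chaperone, which averaged 2825 ± 218 CPM in A8 libraries and 3814 ± 75.1 CPM in DMSO libraries (SD, n = 3 each). Its log2 fold change was -0.43, with an SE of 0.07 and, in edgeR, an adjusted p of 0.0121. The call was lost when A8 1, A8 2 or DMSO 2 was left out, with log2 fold changes of -0.38, -0.42 and -0.42 and adjusted p-values of 0.131, 0.0983 and 0.0905 in edgeR.

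The factors that carry out the decay and its mRNA substrates were examined next. In edgeR 0 of 18 nonsense-mediated decay factors passed in any of the comparisons. Their median in A8 against DMSO was -0.02, with 1 at an unadjusted p under 0.05, against 10.2% of all genes. Of 6 mRNAs known as substrates of the pathway, 0 passed in edgeR. In A8 against DMSO 4 of them had an unadjusted p under 0.05 in edgeR, against 10.2% of all genes. Their values ran from -0.54 (GADD45B) to 0.48 (ATF3) with a median of 0.12, ATF3 and GADD45B being named after their values were seen. Both are also stress-response genes, ATF3 as a transcription factor and GADD45B as an activator of p38 and JNK signalling. Of 14 TOP translation genes, 0 passed in edgeR in any comparison and 3 had an unadjusted p under 0.05 in A8 against DMSO, against 10.2% of all genes. In that comparison 14 of 14 lay above 0, beside 51.8% of all genes, with a median of 0.12 and a lowest value of 0.00023. In A8+ISRIB against DMSO+ISRIB 10 of 14 did, beside 50.5% of all genes, with a median of 0.05. In A8+ISRIB against DMSO, which shares the DMSO libraries, 14 of 14 did, beside 51.1%. Within groups, 11 of the 14 lay below their group mean in A8 2 and 10 in DMSO 3, and 12 above in A8+ISRIB 3. The 14 signs cannot be counted as independent. Of 8 proteins of the snoRNA particles, 0 passed in edgeR. In A8 against DMSO 0 had an unadjusted p under 0.05, against 10.2% of all genes, and the median was -0.05.

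Some members share their locus with a protein-coding gene on the opposite strand. SNHG1 starts next to SLC3A2, the heavy chain of the cystine and large neutral amino acid transporters. SLC3A2 averaged 177 ± 3.28 CPM in A8+ISRIB libraries and 226 ± 10.1 CPM in A8 libraries (SD, n = 3 each), and it fell with ISRIB on top of A8 by 0.35 on the log2 scale, with an SE of 0.06 and, in edgeR, an adjusted p of 0.0116. SNHG1 had -0.04 (SE 0.09) in the same comparison, and the difference between both genes was not tested. The call of SLC3A2 was lost with A8 1, A8+ISRIB 1 or A8+ISRIB 2 left out, at log2 fold changes of -0.31, -0.34 and -0.37 and adjusted p-values of 0.118, 0.0556 and 0.0699 in edgeR, and with the replicate number as a block (log2 fold change -0.35, adjusted p 0.0980). FAM69B, which overlaps SNHG7, averaged 96.2 ± 2.18 CPM in A8 libraries and 108 ± 5.07 CPM in DMSO libraries (SD, n = 3 each). Its log2 fold change was -0.17, where edgeR gave an adjusted p of 0.415, beside 0.18 for SNHG7. The libraries were strand-specific, but the strand setting of the counting is not given in the sources used here, so reads of overlapping opposite genes cannot be told apart.

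The authors' deposited table of A8 against DMSO called 0 of the 10 members, with SNHG12 at the lowest p (0.0882) and adjusted p-values of 0.788 at the lowest. Their deposited tables for DMSO+ISRIB and for A8+ISRIB against DMSO also called 0 of 10. The share of all genes called in these deposited tables was not counted, so nothing particular to the members is read from these counts. In the authors' deposited tables the standard error of SNHG16 was the largest of the members, 0.370 for A8 against DMSO.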

How the data were processed

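Polyadenylated RNA was sequenced in 11 libraries of HEK293T cells. The authors deposited whole-number counts per gene symbol in 1 table. They also deposited 3 DESeq2 tables whose columns, per the file headers, are a base mean (signal after normalization), a log2 fold change and its standard error, a Wald score, and a p-value with and without adjustment. The genome build was GRCh37, and DESeq and DESeq2 were named, per the submitters' processing notes. Neither aligner nor counting program nor annotation is given in the sources used here. Per the labels, the submitters dropped another DMSO+ISRIB library because its quality was poor. Columns of the DMSO+ISRIB group carry numbers that differ from the titles, so its libraries are called a and b.

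Counts went into the quasi-likelihood test of edgeR 4.0.16 (R 4.3.3) with TMM scaling, in 1 fit of group means over the 11 libraries. Low counts were removed with filterByExpr. Benjamini-Hochberg adjustment covered the 15591 genes tested, with calls made at adjusted p-values under 0.05. Standard errors came from the F statistic, and intervals are 95%. Log2 levels used a prior count of 2. The steps were tested on simulated data. No library was a copy of another: chi-square divided by its degrees of freedom was 7.55 to 38.3 between replicates, well above sampling noise.

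The 10 members were named in every comparison, and lists of related genes were described by counts, with called members named. The members and lists were chosen with earlier results of these data known, so no test was made over a list. Neighbouring genes were taken by position in GENCODE v29. Transcript lengths and GC contents were matched for 87.8% of genes tested. Alternatives were DESeq2 size factors, the Wald test of DESeq2 1.42.0, no filter, a filter of at least 50 counts in 2 libraries, a fit of the compared groups alone, the removal of single libraries, and a replicate block. The alternatives for HSPA8 and SLC3A2 were chosen after seeing the data.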

Additional observations from a re-analysis of the deposited data

How the results depend on the processing

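No alternative called any member in any comparison, where each could be fitted. The share of all genes called was not counted for the alternatives. Over the settings that kept all libraries of the groups compared, every member kept the sign of its fold change, and the lowest adjusted p was 0.146 (SNHG16, A8+ISRIB against DMSO+ISRIB, edgeR with no filter). Leaving out 1 library at a time turned the sign of a small fold change in 65 of the member values; the cause was not tested. In A8 against DMSO the log2 fold changes then ran from -0.053 to 0.00048 for SNHG1, -0.17 to 0.041 for SNHG6, -0.033 to 0.14 for SNHG16 and -0.10 to 0.083 for SNHG15. In A8+ISRIB against A8 they ran from -0.13 to 0.012 for GAS5, -0.20 to 0.056 for SNHG1, -0.16 to 0.020 for SNHG5, -0.16 to 4.9e-05 for SNHG6, -0.086 to 0.081 for ZFAS1, -0.067 to 0.063 for SNHG7, -0.040 to 0.12 for SNHG8, -0.15 to 0.084 for SNHG15 and -0.068 to 0.16 for SNHG12. In DMSO+ISRIB against DMSO they ran from -0.0023 to 0.12 for GAS5, -0.23 to 0.049 for SNHG5, -0.12 to 0.089 for SNHG6, -0.0036 to 0.080 for SNHG7, -0.018 to 0.13 for SNHG15 and -0.072 to 0.17 for SNHG12. In A8+ISRIB against DMSO they ran from -0.22 to 0.035 for SNHG1, -0.028 to 0.17 for SNHG5 and -0.15 to 0.063 for SNHG15. In A8+ISRIB against DMSO+ISRIB they ran from -0.045 to 0.12 for ZFAS1, -0.13 to 0.056 for SNHG8 and -0.21 to 0.0028 for SNHG15. For the interaction they ran from -0.11 to 0.17 for SNHG5, -0.18 to 0.036 for SNHG6, -0.11 to 0.025 for SNHG7, -0.21 to 0.024 for SNHG15 and -0.10 to 0.15 for SNHG12. The median of the members ran from 0.01 to 0.12 in A8 against DMSO, and the counts of members called stayed at 0. Leaving out a DMSO+ISRIB library leaves 1, which is then assumed to vary like the other groups.

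A fit with the replicate number as a block was run over the 9 libraries of A8, A8+ISRIB and DMSO. It called 0 members, with GAS5 at 0.21 in A8 against DMSO (adjusted p 0.649 in edgeR). Same-numbered libraries deviated together no more than others did (correlations of -0.133 to 0.138 against -0.120 to 0.154), and 1 of 9 libraries correlated best with its own number. No pairing by number was detected, but so few libraries cannot exclude one. Comparisons with DMSO+ISRIB had no block, because its columns carry other numbers. The members had at least 380 counts in each library. The width of the intervals rested on a spread estimated over all 11 libraries in 1 fit, and on the 2 or 3 libraries in each group compared.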

Other observations

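The snoRNAs inside the members were looked up as rows of their own, since the count table also lists 410 snoRNA and small Cajal body RNA genes. RefSeq places 37 snoRNA genes within the members, of which 35 had a row and 19 passed the filter on low counts. Poly(A) selection does not sample mature snoRNAs, so such counts are of an unknown mixture that can hold unspliced host RNA. The snoRNAs of GAS5 summed to 207 to 264 counts per library, those of SNHG1 to 107 to 157 and those of SNHG12 to 39 to 61. Those of SNHG7 and SNHG15 were at 0 counts in every library.

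In A8 against DMSO, 0 of the 19 passed the threshold in edgeR. An unadjusted p under 0.05 was found in 2 (10.5%), both from SNHG1, against 10.2% of all genes. SNORD22 had 14, 13 and 16 counts in A8 libraries, 21, 19 and 24 in A8+ISRIB libraries, 38 and 31 in DMSO+ISRIB libraries and 31, 21 and 24 in DMSO libraries. Its A8 and DMSO libraries did not overlap, as was so for 16.6% of all genes. The log2 fold change of SNORD22 against DMSO was -0.79 (SE 0.33, unadjusted p 0.0290, adjusted p 0.426 in edgeR), and that of SNORD30 was -0.92 (SE 0.44, unadjusted p 0.0499, adjusted p 0.488 in edgeR). The other 6 tested snoRNAs of SNHG1 lay on both sides of 0, with -0.32 for SNORD31, -0.22 for SNORD27 and -0.11 for SNORD29, and 0.08 for SNORD28, 0.18 for SNORD26 and 0.50 for SNORD25. The A8 and DMSO libraries did not overlap in 4 of the 19, against 16.6% of all genes, and of those from SNHG1 the A8 libraries were lower in SNORD22 and SNORD30 and higher in SNORD25. SNORD22 and SNORD30 were named after their values were seen.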
